A study of Mus musculus with 2 samples.

Results

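The zinc finger genes with H3K4me3-only promoters are 53 genes out of the 1999 in the supplied part of the study's list of promoter classes. All 53 come from the 1363 listed genes whose CpG-rich promoter carried H3K4me3 without H3K27me3, a part of the list that ends at an upper limit of expression. They were picked by symbol, with earlier results of these data known. Of the 53 genes, 49 are called Zfp with a number, and the other members are Zfpm1, Zbtb33, Zbtb37 and Zkscan6. Zfp12, one of several genes that the study showed as examples of a uH2A peak at the promoter, was left out by name. It is not among the 1999 supplied genes, so leaving it out removed none of them.

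The study mapped uH2A, histone H2A carrying a single ubiquitin, by ChIP-Seq with the E6C5 antibody in mouse embryonic fibroblasts (MEFs). The cells were Bmi1 WT and Bmi1 KO (Bmi1 null) C57BL/6 MEFs from littermates, both immortalized with TBX2 and left untreated. Each genotype has 1 library, so no replicate error exists for any value, and every interval given here covers counting error alone at a level of 95%. The wild-type library holds 6114925 tags and the null library 8020248, and to set both libraries on the same total each wild-type count was raised 1.31-fold. RNA levels entered only through the study's list, as its upper limit of expression and its expression groups. Markers of MEFs were not checked, and the Bmi1 locus was not analysed here.

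Most genes of this family encode proteins with arrays of C2H2 zinc fingers that bind DNA, often joined to a KRAB domain that recruits the corepressor TRIM28 (KAP1), or to a BTB or SCAN domain. Many lie in clusters that grew by repeated duplication, and many KRAB proteins silence transposable elements. Bmi1 is a subunit of Polycomb repressive complex PRC1, whose RING1 proteins place ubiquitin on H2A. Ratios are wild-type (scaled) over null, so values above 1 mean more uH2A tags in the wild-type library. In these pooled cells, a mark lost from every cell and a mark lost from some cells cannot be told apart.

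Around the transcription start site (TSS) of the zinc finger genes, uH2A tags were densest at the start itself in both libraries. Tags were averaged in bins of 200 bp on the gene strand. In the first bin after the TSS the average was 2.50 scaled wild-type tags per gene and 1.98 null tags, against 0.653 and 0.690 beyond 3 kb. At the other 1310 H3K4me3-only genes the same bin held 2.55 wild-type and 1.73 null tags. The null library thus kept a summit at the zinc finger genes, 2.87 times its own level beyond 3 kb, and the wild-type summit was 3.83 times its level there.

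**Figure D1:**
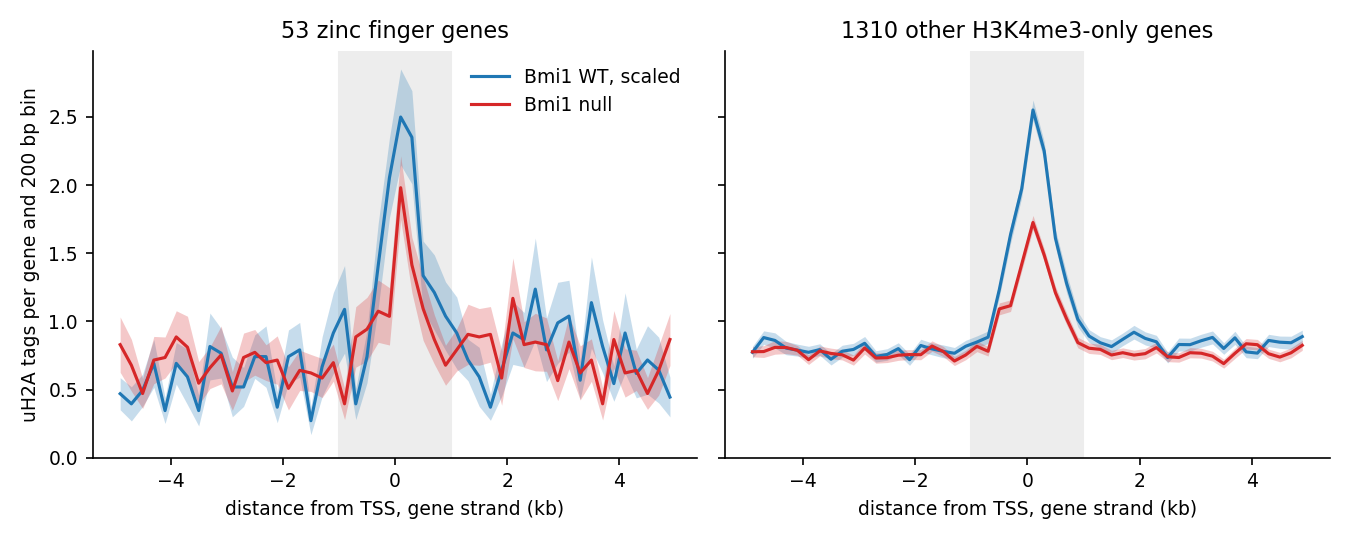
Average uH2A tags per gene in 200 bp bins (y axis) against distance from the TSS in kb (x axis), for the 53 zinc finger genes and the 1310 other H3K4me3-only genes. Lines are the scaled Bmi1 WT library and the Bmi1 null library, shading is s.e.m. across genes, which is not a replicate error, and grey marks the 1 kb on either side; both libraries peak at the TSS, at 2.50 and 1.98 tags for the zinc finger genes.

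Within 1 kb of the TSS the zinc finger genes held 571 wild-type and 550 null tags. The scaled ratio was 1.36 (1.21 to 1.53), and it was 1.33 (1.30 to 1.36) at the other H3K4me3-only genes. The subtracted density, scaled wild-type minus null, averaged 0.375 ± 0.0969 tags per bin (s.e.m. across 53 genes) and 0.377 ± 0.0247 across the other 1310. In the first bin after the TSS it was 0.518 ± 0.399 for the zinc finger genes and 0.825 ± 0.0828 for the others. The bins on either side had the opposite order, with 1.02 ± 0.346 and 0.554 ± 0.0741 from -200 to 0 bp, and 0.936 ± 0.410 and 0.763 ± 0.0772 from 200 to 400 bp. A ratio of 1.5 or more was found at 26 of the 53 promoters, where 40.9% of all H3K4me3-only promoters reached it. A ratio of 1/1.5 or less was found at 7 of the 53, with 17.1% of all such promoters there. The interval lay above 1 at 7 promoters, with 15.0% of all above, and below 1 at 1 promoter, with 2.27% of all below. That promoter was Zfp661, named for this value outside the rule for named genes. It held 1 wild-type and 11 null tags, 0.119 (0.00277 to 0.820), or 0.160 (0.00361 to 1.20) with 1 tag per position and strand. The median promoter of the family held 10 tags in each library, so most single ratios have wide intervals.

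Outside the promoter the excess of wild-type tags was small or absent. From +1 to +5 kb the family had 626 wild-type and 796 null tags, a ratio of 1.03 (0.927 to 1.15), and a subtracted density of 0.0236 ± 0.0644 tags per bin. From -5 to -1 kb it had 481 and 719 tags, a ratio of 0.877 (0.780 to 0.986), beside 1.03 (1.01 to 1.06) at the other genes. With 1 tag kept per position and strand the upstream ratio was 0.948 (0.824 to 1.09), so that interval then included 1. Upstream, the 18 members on chromosome 7 were at 1.13 (0.920 to 1.38) and the 35 elsewhere at 0.772 (0.667 to 0.893). These were 0.993 (0.776 to 1.27) and 0.927 (0.781 to 1.10) with 1 tag per position and strand. Over the whole window of -5 to +5 kb the family had 1678 and 2065 tags, and the ratio was 1.07 (0.999 to 1.14), beside 1.14 (1.12 to 1.15) at the other genes. Its interval was 1.001 to 1.14 when tags in overlapping windows were counted once, an alternative added later. The ratio fell below 1, to 0.955, when wild-type tags were scaled by the tags within 500 kb of each gene. This scaling, added after the data were seen, gave 1.03 at the other genes. The whole window gave 1.07 (0.988 to 1.16) with 1 tag per position and strand, beside 1.11 (1.10 to 1.13) at the other genes.

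Single members ranged from 0.461 to 3.09 over this window, with a median of 1.07 beside 1.09 at the other genes. The medians had the opposite order, 1.11 and 1.09, with 1 tag per position and strand. Ratios of 1.5 or more were found at 9 of the 53, where 20.7% of all 1363 H3K4me3-only genes reached that level. Ratios of 1/1.5 or less were found at 6 of the 53, against 10.9% of all. At 2-fold, 1 member was higher, with 5.28% of all, and 2 were lower, with 3.01% of all. The interval lay above 1 at 4 members, with 16.7% of all genes above, and below 1 at 3 members, with 6.53% of all below. These shares were near or under those of the whole class.

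**Figure D2:**
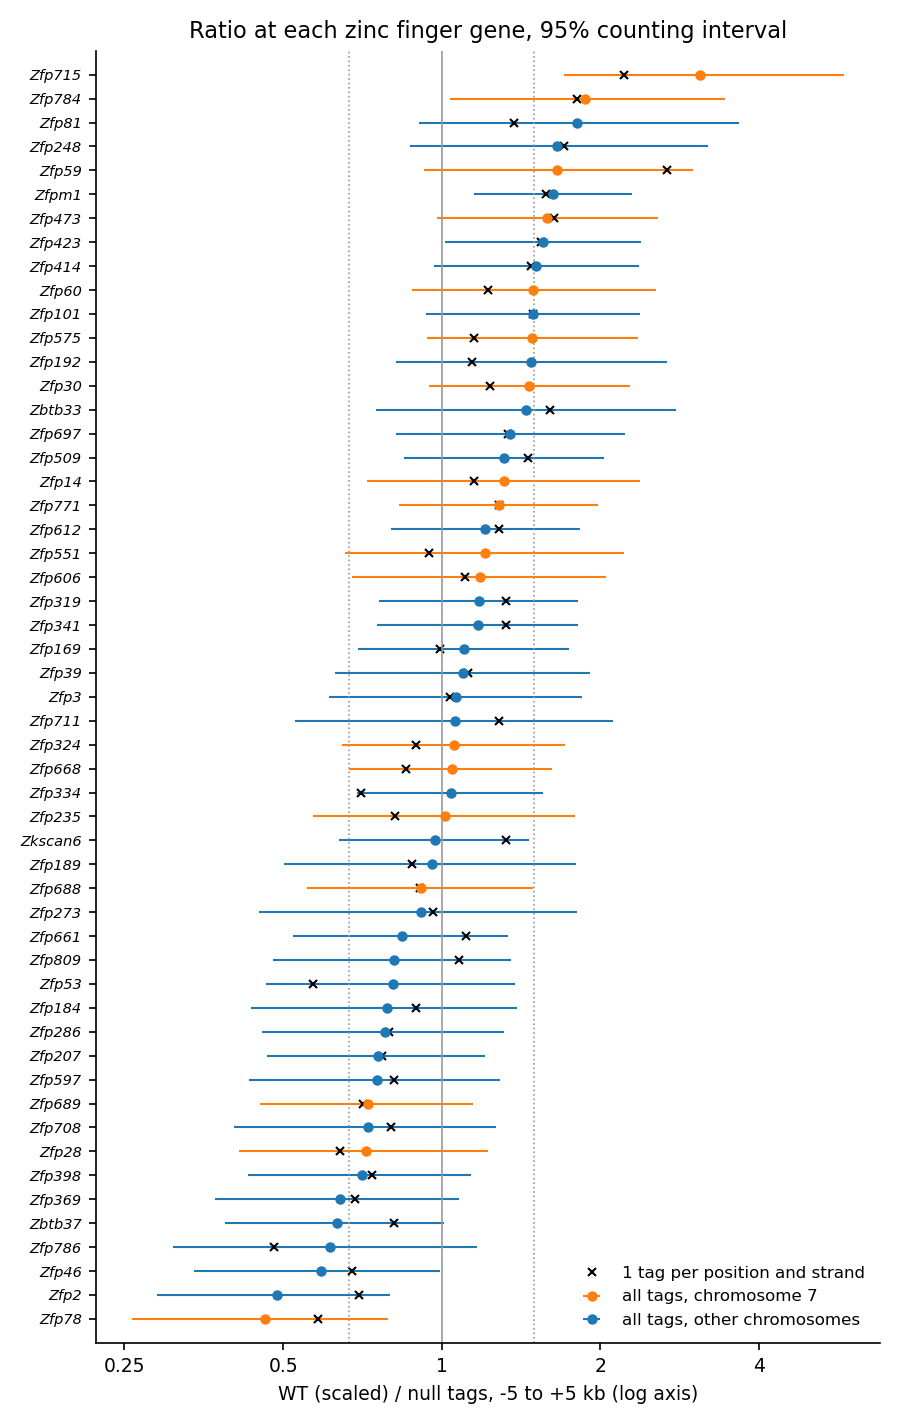
Ratio of scaled wild-type to null tags in -5 to +5 kb (x axis, log scale) for each of the 53 zinc finger genes (y axis), with 95% Clopper-Pearson intervals for counting error. Crosses give the ratio with 1 tag per position and strand and dotted lines mark 1.5-fold; Zfp715 is highest at 3.09 and Zfp78 lowest at 0.461.

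The KRAB zinc finger gene Zfp715 on chromosome 7 had the highest ratio. It held 40 wild-type and 17 null tags, a ratio of 3.09 (1.71 to 5.81), and 2.22 (1.13 to 4.51) with 1 tag per position and strand. Its promoter held 7 wild-type tags and 1 null tag. A listed peak downstream held 13 of the 40 wild-type tags. In the 5 to 50 kb on either side, 216 wild-type and 292 null tags gave 0.970 (0.810 to 1.16), so the excess at Zfp715 did not extend over its surroundings.

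Zfpm1, also known as FOG1, encodes a cofactor of GATA factors and had the most tags of the family. It held 78 wild-type and 63 null tags, a ratio of 1.62 (1.15 to 2.30). Here the surroundings had a like ratio, 1.68 (1.498 to 1.89) from 679 wild-type and 530 null tags, and scaling by the tags within 500 kb brought the gene to 1.001. Zfp423, a cofactor in BMP signalling and a regulator of preadipocytes, held 51 and 43 tags, a ratio of 1.56 (1.02 to 2.39). Its surroundings were at 1.36 (1.17 to 1.58), and the locally scaled ratio was 1.15. Zfp784 held 30 and 21 tags, a ratio of 1.87 (1.04 to 3.44), which was 1.58 after local scaling. With 1 tag per position and strand the intervals of Zfp423 and Zfp784 included 1, while those of Zfpm1 and Zfp715 stayed above it. Zfp81, Zfp248 and Zfp59 also had ratios of 1.80, 1.66 and 1.65, each from 29 wild-type tags or fewer and with an interval that included 1. With 1 tag per position and strand Zfp59 was at 2.68 (1.26 to 6.09), from 23 wild-type and 11 null tags.

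At the low end, Zfp78 on chromosome 7 held 19 wild-type and 54 null tags, a ratio of 0.461 (0.258 to 0.791). Zfp2 on chromosome 11 held 23 and 62 tags, a ratio of 0.487 (0.288 to 0.797), and Zfp46 on chromosome 4 held 22 and 49, a ratio of 0.589 (0.339 to 0.992). Repeated positions contributed to all 3 values. With 1 tag per position and strand, Zfp78 had 15 and 33 tags (0.583, 0.294 to 1.10), Zfp2 had 19 and 35 (0.696, 0.376 to 1.25) and Zfp46 had 19 and 36 (0.677, 0.367 to 1.21). None of the 53 intervals then lay below 1, where 1.47% of all H3K4me3-only genes had such an interval, so a count of 0 does not set the members apart. Zfp786, Zbtb37 and Zfp369 followed with ratios of 0.615, 0.633 and 0.642, and their intervals included 1. Zbtb37 and Zfp369 were at 0.812 and 0.684 with 1 tag per position and strand. Zfp786 then moved the other way, to 0.481 (0.197 to 1.07) from 9 and 24 tags, the lowest of the family.

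The promoters with the most distinct wild-type positions within 1 kb were those of Zfpm1, Zfp341, Zfp30, Zfp509 (Zbtb49), Zfp169 and Zfp668. Zfp771 had 12 such positions, as many as Zfp169 and Zfp668, and ties were ordered by symbol. Zfp30 had the highest ratio of the 6, with 23 wild-type and 7 null tags within 1 kb, 4.31 (1.79 to 11.9). With 1 tag per position and strand it had 13 and 6, a ratio of 2.78 (0.985 to 8.91), so the interval then included 1. Zfpm1 had 20 and 18 tags there, a ratio of 1.46 (0.732 to 2.92), and Zfp668 had 13 and 17, a ratio of 1.003 (0.448 to 2.19). Zfp341, whose human counterpart controls STAT3 transcription, and Zfp169 each had 19 wild-type and 14 null tags. Wild-type positions chose these 6 promoters, which tilts their ratios upwards, so these values are a description only.

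Among members with known roles, Zfp809, which represses retroviruses by binding their primer binding site, held 26 wild-type and 42 null tags, a ratio of 0.812 (0.478 to 1.36). That ratio turned to 1.08, from 21 and 25 tags and with an interval that included 1, with 1 tag per position and strand. Zbtb33 (Kaiso), which binds methylated CpG, had 22 and 20 tags, a ratio of 1.44 (0.751 to 2.79). Zfp207 (BuGZ), which acts at kinetochores with Bub3, had 30 and 52 tags in the whole window but 19 and 10 within 1 kb, so its ratio was 0.757 (0.466 to 1.21) in the first and 2.49 (1.10 to 6.00) in the second. With 1 tag per position and strand the second was 2.02 (0.713 to 6.13), from 11 and 7 tags, and its interval included 1. The SCAN and KRAB gene Zkscan6 had 43 and 58 tags in the window (0.972, 0.640 to 1.47) and 14 and 6 within 1 kb (3.06, 1.10 to 9.72), or 30 and 29 (1.33, 0.769 to 2.29) and 11 and 4 (3.53, 1.04 to 15.2) with 1 tag per position and strand. The X-linked gene Zfp711 had 17 and 21 tags, too few to tell its ratio of 1.06 (0.526 to 2.11) from a change of 1.5-fold either way.

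No promoter of the family was overlapped by any of the 16406 peaks that the authors deposited as enriched in wild-type over null. With 3 counts as the limit that a count of 0 allows, the share could be up to 5.66%, or 6.72% by the Clopper-Pearson interval, and 3.74% of all H3K4me3-only promoters were overlapped. Zfp12, at whose promoter the study reported a uH2A peak, stands outside this count. A peak lay inside -5 to +5 kb at 4 of the 53 genes, beside 9.90% of all. The peaks were called from the same libraries, with a lowest listed fold of 5.01, so few null tags in a peak follow from the calling. The peak downstream of Zfp715 (chr7:43176906-43177330, mm8) held 13 wild-type tags on 7 distinct positions and 0 null tags. The peak downstream of Zfp334 (chr2:165076149-165077155) held 13 wild-type tags on 6 distinct positions and 2 null tags. That downstream of Zfpm1 (chr8:125171568-125171966) held 11 wild-type tags on 4 positions and 1 null tag, and that upstream of Zfp30 (chr7:29490090-29490422) held 10 on 4 positions and 1 null tag. The whole window of Zfp334 had 46 wild-type and 58 null tags, 1.04 (0.691 to 1.56), but 23 and 42 with 1 tag per position and strand, 0.702 (0.403 to 1.19), so its side of 1 rested on repeated positions.

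Chromosome 7 carries 18 of the 53 zinc finger genes and 79 of the other 1310. The whole of chromosome 7 had a ratio of 1.12. Its 18 zinc finger genes had 582 wild-type and 646 null tags in -5 to +5 kb, a ratio of 1.18 (1.05 to 1.32), with a median of 1.24. The 79 other H3K4me3-only genes of the chromosome had 1.41 (1.35 to 1.48), with a median of 1.33. The 18 genes with 1 tag per position and strand were at 1.09 (0.952 to 1.25), an interval that included 1, and the 79 at 1.30 (1.23 to 1.38). On the remaining chromosomes the 35 zinc finger genes had 1096 and 1419 tags, a ratio of 1.01 (0.935 to 1.10), beside 1.12 (1.10 to 1.13) at the other genes. These ratios were 1.06 (0.960 to 1.16) and 1.10 (1.08 to 1.12) with 1 tag per position and strand. With all tags counted, the highest and the lowest ratio of the family, at Zfp715 and Zfp78, were both on chromosome 7. With 1 tag per position and strand the highest was Zfp59 on chromosome 7, at 2.68, and the lowest Zfp786 on chromosome 6, at 0.481. The zinc finger genes of chromosome 7 thus had a lower summed ratio than its other H3K4me3-only genes, and this difference was not tested.

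**Figure D3:**
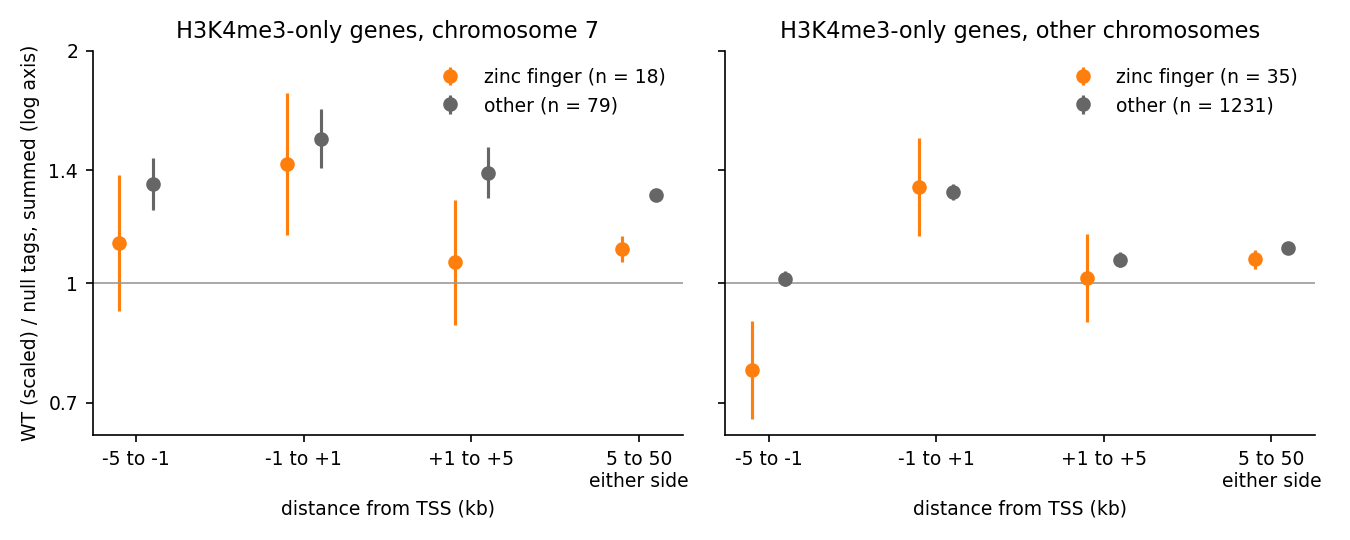
Ratio of summed wild-type (scaled) to null tags (y axis, log scale) by distance from the TSS (x axis, kb), for zinc finger genes and other H3K4me3-only genes on chromosome 7 and elsewhere. Bars are 95% Clopper-Pearson intervals for counting error; within 1 kb the zinc finger genes lie at 1.43 on chromosome 7 and 1.33 elsewhere.

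Some members lie close together. Within 100 kb of another member lay 10 of the 53, in 5 pairs: Zfp786 and Zfp398, Zfp78 and Zfp28, Zfp688 and Zfp689, Zfp81 and Zfp101, and Zfp551 and Zfp606. Zfp81 and Zfp101 were at 1.80 and 1.49, whereas Zfp78 and Zfp28 were at 0.461 and 0.718, and Zfp786 and Zfp398, whose windows overlap, were at 0.615 and 0.706. Zfp688 and Zfp689 were at 0.915 and 0.726, and Zfp551 and Zfp606 at 1.21 and 1.18. The Zfp551 ratio turned to 0.945 with 1 tag per position and strand. The intervals of the members of each pair overlapped. Together, with tags in overlapping windows counted once, the 10 genes had 255 wild-type and 375 null tags, a ratio of 0.892 (0.758 to 1.05), beside 1.11 (1.03 to 1.19) at the other 43, a difference that was not tested.

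The surroundings from 5 to 50 kb, looked at after the ratios of the genes were known, hold more tags and so have narrower intervals. The family's median there was 1.01, beside 1.08 at the other H3K4me3-only genes. The lowest was Zfp53 on chromosome 17, with 146 wild-type and 289 null tags, 0.663 (0.539 to 0.811), followed by Zfp606 on chromosome 7 at 0.694 (0.560 to 0.858). At the other end stood Zfpm1 and Zfp319, both at 1.68. Zfp53, Zfp319, Zfp14 and Zfp771 are named for values seen here, outside the rule for named genes, which took Zfp606 for its position. In the RefSeq gene order of assembly GRCm38.p6, Zfp53 has 13 genes with a zinc finger symbol among its 20 nearest protein-coding neighbours and Zfp319 has 0. The order was not general: Zfp14 has the most, 14, with surroundings at 1.23 (1.05 to 1.43), and Zfp771 has 6 with surroundings at 1.49 (1.27 to 1.73). With tags in overlapping surroundings counted once, the 22 members with 5 or more such neighbours had 4252 wild-type and 5557 null tags there, a ratio of 1.004 (0.964 to 1.04), and the 31 members with fewer had 1.14 (1.11 to 1.18). The 22 include the 10 that lie within 100 kb of another member, at 0.897 (0.836 to 0.962), and the other 12 were at 1.06 (1.01 to 1.11). The 11 other H3K4me3-only genes with 5 or more zinc finger neighbours had 1.15 (1.09 to 1.21). Across the 53 genes, Spearman's rho between the ratio of the gene and that of its surroundings was 0.11. Across the 1310 other H3K4me3-only genes it was 0.27. Both are given as a description, since all these ratios come from the same 2 libraries.

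**Figure D4:**
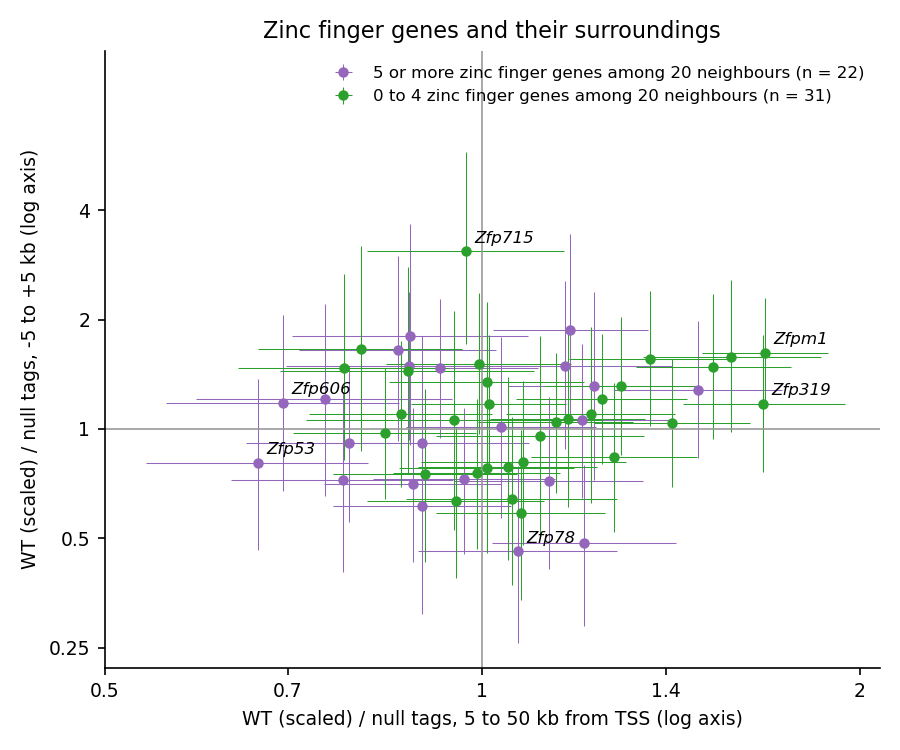
Ratio of scaled wild-type to null tags in -5 to +5 kb (y axis, log scale) against the ratio 5 to 50 kb from the TSS (x axis, log scale) for 53 zinc finger genes, coloured by zinc finger genes among 20 neighbours. Bars are 95% Clopper-Pearson intervals; surroundings run from 0.663 at Zfp53 to 1.68 at Zfpm1, and Zfp715 is high at the gene with surroundings at 0.970.

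Promoter sequences of 47 of the 53 genes were found in the RefSeq promoter table (GRCm38.p6, 300 bases each, some genes with several starts). The family's 58 promoters had a median of 17 CG, beside 22 in 1383 promoters of the other H3K4me3-only genes and 7 in all 32851 of the table. The letters GGGCGG, read on both strands like all that follow, stood in 43.1% of the family's promoters, in 66.4% of the other H3K4me3-only promoters and in 35.7% of all. CCGGAAG, the core of many ETS sites, stood in 34.5%, 16.6% and 8.86%. CCAAT was alike in the 3 sets, at 39.7%, 39.6% and 37.4%. Shares for ATGGCGG were 10.3%, 7.23% and 4.05%, and for TATAAA 6.90%, 6.51% and 13.6%.

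The promoters of Zfp28, Zbtb37 and Zfp60 are shown because they hold CCGGAAG and differ in their tags within 1 kb. Before scaling, their null tags there range from more to fewer than the wild-type tags. These promoters were chosen after these values were seen, and Zfp60 lies outside the rule for named genes. They are printed with CCGGAAG or its reverse complement in capitals. In GRCm38.p6 they lie at chr7:6383068-6383367 (+ strand), chr1:161034800-161035099 (- strand) and chr7:27731159-27731458 (+ strand), and are credited to RefSeq. All promoter sequences were matched by gene symbol, not by the TSS around which tags were counted, so their starts can differ from it.
Zfp28: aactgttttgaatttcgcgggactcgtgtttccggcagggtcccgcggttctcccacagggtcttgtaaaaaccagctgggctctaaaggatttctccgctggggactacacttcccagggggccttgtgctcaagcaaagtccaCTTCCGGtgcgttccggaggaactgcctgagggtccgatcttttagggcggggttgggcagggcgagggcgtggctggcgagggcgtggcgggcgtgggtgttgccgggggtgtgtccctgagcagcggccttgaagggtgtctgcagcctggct
Zbtb37: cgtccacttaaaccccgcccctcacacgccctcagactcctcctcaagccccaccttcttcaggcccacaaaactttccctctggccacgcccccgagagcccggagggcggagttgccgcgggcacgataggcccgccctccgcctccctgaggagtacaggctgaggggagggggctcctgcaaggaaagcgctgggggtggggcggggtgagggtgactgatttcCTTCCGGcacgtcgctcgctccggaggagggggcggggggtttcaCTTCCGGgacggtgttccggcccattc
Zfp60: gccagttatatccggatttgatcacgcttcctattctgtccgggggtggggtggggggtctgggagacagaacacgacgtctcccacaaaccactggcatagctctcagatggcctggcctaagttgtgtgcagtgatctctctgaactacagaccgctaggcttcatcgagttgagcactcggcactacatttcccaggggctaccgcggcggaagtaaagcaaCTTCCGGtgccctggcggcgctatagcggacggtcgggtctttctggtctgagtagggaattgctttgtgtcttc
Before scaling, Zfp28 had 3 wild-type and 10 null tags within 1 kb, Zbtb37 had 12 and 14, and Zfp60 had 13 and 3. Raised 1.31-fold, the 12 wild-type tags of Zbtb37 exceed its 14 null tags.

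The 18 members with CCGGAAG had 164 wild-type and 207 null tags within 1 kb, a ratio of 1.04 (0.841 to 1.28). The 29 members without had 352 and 286 tags, a ratio of 1.61 (1.38 to 1.89). At the other H3K4me3-only genes the same split gave 1.36 (1.28 to 1.44) with the letters and 1.30 (1.27 to 1.34) without, which is the opposite order. This was 1 of 11 splits of the family by promoter letters, made after the ratios were known, and its difference was not tested. It was not the widest gap, since 3 members with GCGCATGC, which 5.17% of the family's promoters, 5.42% of the others and 2.71% of all held, had 39 wild-type and 16 null tags, 3.20 (1.75 to 6.13), beside 1.31 (1.15 to 1.49) in the 44 without. Zfp30 alone held 23 of those wild-type tags. The ratios were 2.20 and 1.28 with 1 tag per position and strand. At the other H3K4me3-only genes this split gave 1.30 with GCGCATGC and 1.32 without. For CCGGAAG the ratios of the 18 and the 29 members were 1.09 and 1.47 with 1 tag per position and strand. The split by number of CG gave a smaller gap than CCGGAAG, with overlapping intervals, 1.20 (1.01 to 1.43) in the 23 members with more than 17 in a promoter and 1.61 (1.33 to 1.94) in the 24 others, or 1.25 and 1.42 with 1 tag per position and strand. The other H3K4me3-only genes had the opposite order for CG, 1.32 with more than 17 and 1.28 without. Over -5 to +5 kb the members with and without CCGGAAG had 1.02 (0.908 to 1.15) and 1.08 (0.997 to 1.18).

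The study's list sorts the genes by expression into numbered groups, and 28 of the 53 are in group 4 and 25 in group 3. Group 4 members had 930 wild-type and 1052 null tags in -5 to +5 kb, a ratio of 1.16 (1.06 to 1.27), and group 3 members had 748 and 1013, a ratio of 0.968 (0.880 to 1.07). At the other genes both groups were alike, 1.13 and 1.14. Within 1 kb the zinc finger genes of both groups were at 1.34 and 1.39. In -5 to +5 kb with 1 tag per position and strand, group 4 members were at 1.14 (1.02 to 1.27). Group 3 members were then at 0.993 (0.885 to 1.11), and the intervals overlapped, as they did with all tags. The surroundings of group 4 and group 3 members had the same order, 1.13 and 1.03 from 5 to 50 kb. From 10 to 500 kb they were at 1.195 and 1.09. The difference between the groups was not tested.

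Of 32 genes that work with zinc finger repressors or with uH2A, 4 stand among the 1363 supplied H3K4me3-only genes, namely Cbx5, Dnmt1, Ezh2 and Yaf2. Ezh2, the PRC2 methyltransferase, held 14 wild-type and 48 null tags in -5 to +5 kb, a ratio of 0.383 (0.195 to 0.705), which was 0.513 (0.239 to 1.03) with 1 tag per position and strand. Yaf2, a PRC1 subunit, held 37 and 56 tags (0.867, 0.556 to 1.34). Cbx5, which encodes HP1 alpha, held 32 and 43 (0.976, 0.598 to 1.58), and the maintenance methyltransferase gene Dnmt1 held 35 and 41 (1.12, 0.692 to 1.80). The ratios of Cbx5 and Dnmt1 turned, to 1.06 and 0.905, with 1 tag per position and strand.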

How the data were processed

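The authors mapped tags of 25 bp to mm8 and deposited 1 line per tag. They also deposited peaks of wild-type over null with tag counts, a fold ratio and a p-value per peak. Only peak positions and counts were used, apart from a p-value limit of 1e-07 as an alternative. Tags were counted here at the lower end of the alignment, around TSSs of the study's list. Ratios have exact Clopper-Pearson intervals. With 1 library per genotype no test was made. Members and lists were chosen with earlier results of these data known. Named genes were the 6 highest and 6 lowest ratios with 20 tags or more, the 6 with most distinct wild-type positions within 1 kb, members with a peak within 5 kb, with an interval off 1 or within 100 kb of another, and 8 named for role. Splits by surroundings, neighbours and promoter letters were added later. Counts of fingers per protein were not made. Counting and intervals were tested on simulated data, with independent counts that do not model repeated positions. Python 3.11.15, NumPy 2.4.6, pandas 2.3.3, SciPy 1.17.1 and matplotlib 3.10.9 were used.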

Additional observations from a re-analysis of the deposited data

How the results depend on the processing

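Of 56 values recomputed under other settings, 48 stayed within the counting interval of the value reported or, for counts of genes, within 1.5 times, and 8 did not. Among the summed ratios recomputed here, those within 1 kb and in the surroundings had intervals that excluded 1. Both kept their direction under the settings run for each. Scaling by tags within 500 kb was run for the former but not for the surroundings. The surroundings, at 1.09, lay below the 1.14 from 10 to 500 kb around the same genes. Their direction under that scaling was therefore not shown. This scaling was also not run for the splits by chromosome, expression group or nearby members. The ratio over -5 to +5 kb was 1.19 in a window of -2 to +2 kb, and 0.955 when scaled by tags within 500 kb, which was chosen after seeing the data. With negative bins set to 0 the subtracted density was 0.973 within 1 kb and 0.581 from +1 to +5 kb, and 1.33 in the first bin after the TSS (0.518 as reported), by construction, since only positive bins then remain. It was lower with 1 tag per position and strand, at 0.232 within 1 kb (0.375 as reported) and 0.276 in the first bin. At a fold of 2 instead of 1.5, 1 member was higher and 2 were lower, beside 5.28% and 3.01% of all H3K4me3-only genes. Peaks touched 4 windows of -5 to +5 kb and 0 promoters. The ratio of the surroundings was 1.09, and 1.04 when scaled by chromosome totals. From +1 to +5 kb the subtracted density lay near 0 and took either sign, from -0.0538 with scaling within 500 kb to 0.0437 with 5' ends shifted along the fragment. No paired analysis was possible because each genotype has 1 library. Depth limits single members: a median member had 28 wild-type and 40 null tags in the window, and 30.4% of wild-type and 32.1% of null tags in the members' windows repeat a position.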
